A study of Rattus norvegicus with 35 samples.

Results

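The contractile apparatus of skeletal muscle was followed in RNA of the rat olfactory epithelium through 10 genes that code for its parts: the heavy chains of myosin Myh3, Myh8 and Myh1, the myosin light chain Mylpf, the actin Acta1, the troponin subunits Tnni2, Tnnc2 and Tnnt3, the Z-disc protein Actn3 and the muscle creatine kinase Ckm. Probes were taken where the array's own gene name, or the symbol in brackets in its description, was that of one of these genes, which gave 9 probes for 8 genes. Mylpf was found through the accession of a probe that the array names Myl2 and RefSeq names Myl11, with Mylpf among its synonyms, so that 10 probes of 41012 stood for 9 of the 10 genes. Myh1 had no probe of its own name and is not among these 9, though a probe described below with Myh2 may read it. Its promoter is included in the motif search.

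RNA was hybridized to 35 Agilent whole rat genome arrays, labeled with 1 dye, from 27 Brown Norway rats. The newborn group held 19 pups of 4 litters, aged 3 to 5 days and of unknown sex, with 4 pups in litter L1 (rats 9 to 12) and 5 each in L2 (rats 21 to 25), L3 (rats 26 to 30) and L4 (rats 31 to 35), and each pup gave RNA of 1 side of the nose on 1 array. The adult group held 4 males aged 9 weeks (rats 13 to 16) and the old group 4 males aged 22 months (rats 17 to 20), and each of these rats gave 2 arrays, A and B, from the left and right sides. All rats were untreated and of the same strain, and the whole epithelium was lifted from the opened nasal cavity, so that the samples hold every cell type that came away with it. The paper states that pups were too small for their sides to be dissected separately. Dissection thus differed between pups and older rats, and its part in the muscle values was not tested. In such bulk RNA, fewer cells of a type and less RNA per cell cannot be told apart.

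Skeletal muscle shortens when myosin heads pull on actin filaments, and troponin on the actin filament lets them do so only while calcium is raised. The heavy chain decides how fast the motor works, and muscle exchanges it as it matures. Fibers before birth make embryonic myosin (Myh3) and fibers around birth make neonatal myosin (Myh8). These are replaced after birth by adult forms, among them the fast forms Myh2, Myh1 and Myh4. Myh7 is the form of slow fibers. The other genes followed here are mostly those of fast fibers: Tnni2, Tnnc2 and Tnnt3 are the inhibitory, calcium-binding and tropomyosin-binding subunits of fast troponin, Mylpf is the regulatory light chain of fast fibers, and Acta1 is the sarcomeric actin of skeletal muscle. The olfactory epithelium itself is a sheet of neurons, supporting cells and basal cells and is not a muscle.

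Each array probe is a 60-base sequence that stands for its gene, and the probes of the heavy chains are shown first because these genes are close relatives whose RNA could in principle be read by the same probe. In the coordinates of the files (build rn3), the heavy chain probes lay in a row on chromosome 10. The Myh3 probes were at chr10:53814193-53814252 and chr10:53813142-53813201, the Myh2 probe at chr10:53902866-53902925, the Myh4 probe at chr10:53967556-53967615 and the Myh8 probe at chr10:54013601-54013660. Of the Myh3 probes only the second was compared in sequence with the others. The first, which stands for Myh3 in the counts and differences below, was not compared. Capitals mark the longest run shared by the embryonic and neonatal probes, 6 bases, and by the Myh2 and Myh4 probes, 9 bases.
Myh3, second probe: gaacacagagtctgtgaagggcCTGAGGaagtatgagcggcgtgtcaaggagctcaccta
Myh8: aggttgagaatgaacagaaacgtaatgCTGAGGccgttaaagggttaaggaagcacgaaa
Myh2: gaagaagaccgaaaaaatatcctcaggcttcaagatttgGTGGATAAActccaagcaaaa
Myh4: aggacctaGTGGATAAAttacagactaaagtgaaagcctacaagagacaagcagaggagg
Aligned without gaps, the probes of Myh3 (the second) and Myh8 were identical at 24 of 52 positions (46.2%), and those of Myh2 and Myh4 at 26 of 56 (46.4%). The probes of the slow and cardiac chains Myh7 and Myh6, on chromosome 15, had in contrast a run of 27 bases in common, GCCAAGAGCCGTGACATTGGCGCCAAG, at bases 1 to 27 of the first and 12 to 38 of the second, and their values are therefore not separable below. The other members lay at chr1:202849772-202849831 (Tnni2), chr1:202919125-202919184 (Tnnt3), chr1:207629023-207629082 (Actn3), chr1:78850529-78850588 (Ckm), chr1:186624286-186624345 (Mylpf), chr3:155714006-155714065 (Tnnc2) and chr19:54087858-54087917 (Acta1). No gene model of this build was used here, so the exon or untranslated region a probe lies in is not given.

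A level is the log2 of a probe's background-subtracted intensity over the median of its array, so that 0 is the median probe and 1 step is a doubling. Values under 0.01 of the median were set to 0.01, which is -6.64 on this scale, and have no order among themselves. A probe counted as above background on an array when at least 0.5 of its spots carried a significant positive signal that the scanner software flagged as well above background, with neither saturation nor uneven pixels. Between 24484 and 28361 probes of an array were above background, and the array medians lay between 81.6 and 162 intensity units in adult rats and between 37.1 and 87.7 in all others. The adult arrays alone were scanned on the first 2 of 5 scan days, L1 and the old rats on the third day, and L2 to L4 on the last 2, so that age and scan day cannot be told apart except between L1 and the old rats. The number of arrays limits the precision. In the age comparisons the p-values of limma measure the spread between rats within a litter or age group. The spread between litters does not enter them, except where litter means are the replicates. The tissue carried its defining marker: Omp, the olfactory marker protein of mature olfactory neurons, was above background on every array, with mean levels of 5.16, 7.57 and 8.26 for the newborn, adult and old groups.

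All 9 genes were above background on all 19 pup arrays. Against adult rats, the 9 of 9 were higher in newborn rats at an adjusted p under 0.01 (limma over 6 groups, Benjamini-Hochberg over all probes), where 26.8% of all probes tested were higher and 19.8% lower by the same rule. With a fold of at least 5 required as well, 7 of 9 were called, against 2.26% of all probes. Against old rats, 8 of 9 were higher, where 20.4% of all probes were higher and 22.7% lower, and 7 of 9 with the fold, against 2.96% of all probes. The median fitted log2 change over the 9 genes was 5.43 against adult and 6.19 against old rats, or 5.32 and 5.19 with the 3 and 4 genes that the older rats mostly lacked set at their bounds, while the median over all probes was 0.10 and -0.04. These comparisons share the 19 pups and are given side by side, not as separate evidence. The 9 genes were chosen with earlier results of these data known, so the shares of all probes are a background and no test of the set. Every pup lay above every adult rat for 8 of the 9 genes, a pattern seen in 15.9% of all probes, and above every old rat for 7 of the 9, seen in 10.3% of all probes.

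**Figure D1:**
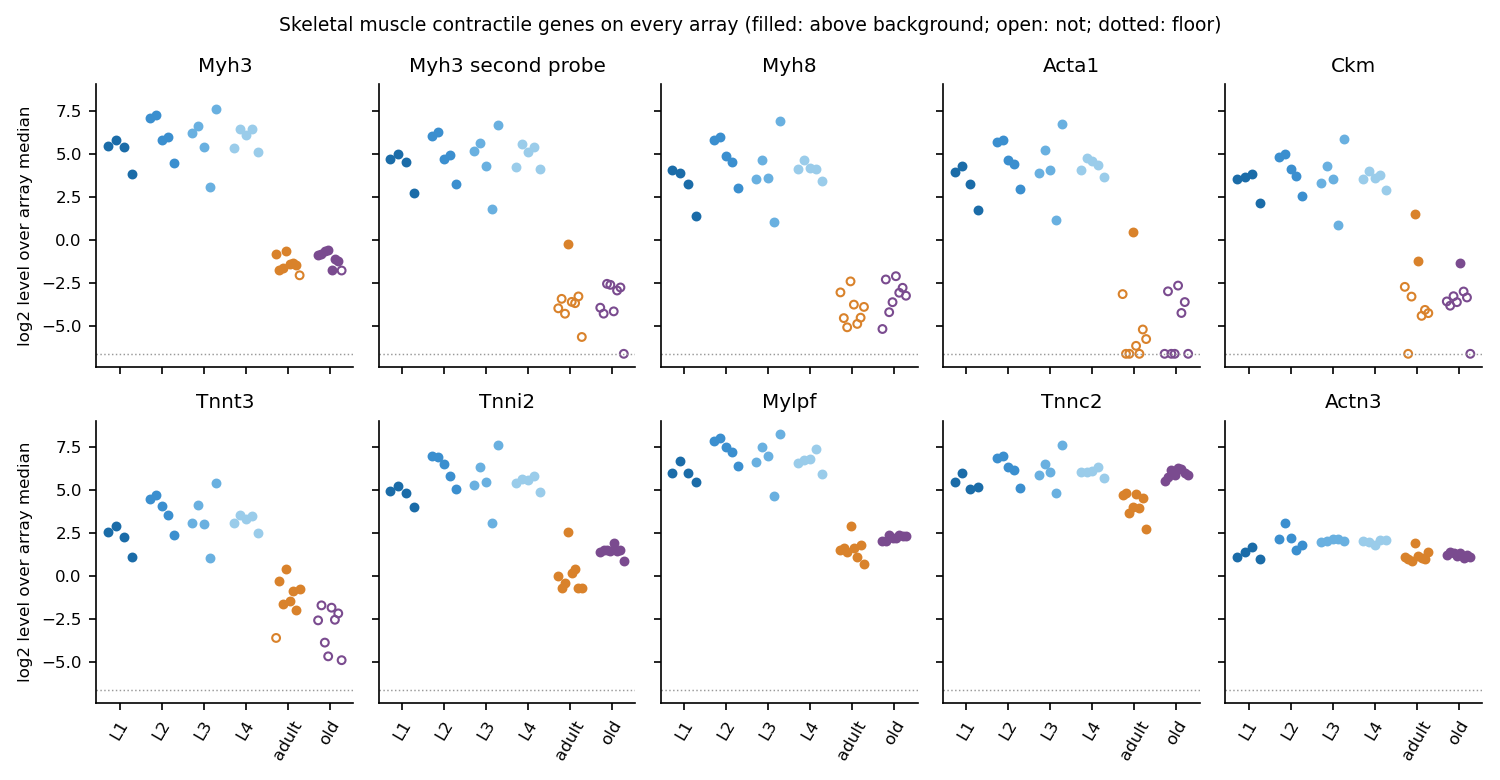
Level of the 10 probes on each of the 35 arrays (y axis: log2 of the intensity over the array median; x axis: the 4 litters, adult and old rats; filled points: above background; open points: not; dotted line: the floor at -6.64). The pups lie above the adult and old arrays except for Tnnc2, where old rats reach the pups' levels, Ckm, where 1 adult array at 1.498 lies above the lowest pup at 0.83, and Actn3, where all arrays lie between 0.87 and 3.10.

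Embryonic myosin Myh3 was far higher in every pup than in any older rat. The levels of its first probe were 5.44, 5.79, 5.42 and 3.81 in the pups of L1 and 7.11, 7.28, 5.80, 5.99 and 4.44 in those of L2. Litter L3 held the extremes with 6.21, 6.59, 5.41, 3.06 and 7.62, and litter L4 gave 5.32, 6.47, 6.08, 6.44 and 5.09. In adult rats they were -1.29, -1.16, -1.38 and -1.78, and in old rats -0.87, -0.64, -1.44 and -1.52. No pup overlapped with an adult or old rat, although the probe was still above background on 7 of 8 adult and 7 of 8 old arrays. The newborn mean was 140-fold the adult mean (95% confidence interval 63.9 to 306, adjusted p = 1.1e-10, limma) and 115-fold the old mean (52.3 to 251, adjusted p = 3.6e-10, limma).

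The second Myh3 probe gave the same order of groups, with pups between 1.78 and 6.66 and a median of 4.91. It was above background on 1 of 8 adult arrays and 0 of 8 old arrays, so that only bounds can be given: newborn rats exceeded adult rats at least 111-fold and old rats at least 117-fold. A bound sets the mean of the bright group against the dimmest signal well above background on each array of the dim group, or the probe's own signal where that is higher. All bounds given here hold for the main processing only. The probes of this gene thus disagreed on whether Myh3 was detected in adult and old rats. Both detected it in every pup, where the first exceeded the second by 0.75 to 1.28 log2 steps.

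Neonatal myosin Myh8 was above background on every pup and on none of the 16 adult and old arrays. The pup levels ran from 1.02 through a median of 4.11 to 6.91, and the newborn, adult and old means were 4.01, -4.04 and -3.33. The newborn mean exceeded that of adult rats at least 82.4-fold (adjusted p = 2.3e-10, limma) and that of old rats at least 71.9-fold (adjusted p = 1.7e-09, limma).

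Skeletal actin Acta1 was high in every pup and near the floor in most older rats. Its levels were 3.94, 4.30, 3.22 and 1.74 in the pups of L1 and 5.69, 5.79, 4.64, 4.42 and 2.95 in those of L2. Litter L3 gave 3.89, 5.24, 4.06, 1.14 and 6.74, and litter L4 gave 4.07, 4.78, 4.59, 4.36 and 3.66. The adult rats were at -4.91, -3.11, -6.41 and -5.51 and the old rats at -4.83, -6.64, -3.47 and -5.14, and the probe was above background on 1 of 8 adult and 0 of 8 old arrays. As bounds, the pups exceeded adult rats at least 69.9-fold and old rats at least 78.1-fold (adjusted p = 1.9e-10 and 2.8e-10, limma).

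Creatine kinase Ckm, which refills ATP from phosphocreatine at the myofibril, ran from 0.83 through 3.67 to 5.88 in the pups. It was above background on 2 of 8 adult arrays and 1 of 8 old arrays, with means of -3.16 and -3.60. Pups exceeded adult rats at least 39.9-fold and old rats at least 51.5-fold (adjusted p = 7.0e-09 and 3.7e-09, limma).

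Of the fast troponin subunits, Tnnt3, which anchors the complex to tropomyosin, ran from 1.03 through 3.10 to 5.42 in pups. Its adult rats were at -1.94, -0.59, -1.16 and -1.35, above background on 7 of 8 arrays, and its old rats between -4.27 and -2.14, above background on none. Pups exceeded adult rats 21.4-fold (interval 9.96 to 45.8, adjusted p = 1.8e-07, limma) and old rats at least 36.5-fold (adjusted p = 1.2e-09, limma).

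Tnni2, the inhibitory subunit, was above background on every array. Pups ran from 3.11 through 5.48 to 7.62, adult rats were at -0.32, 1.10, 0.31 and -0.69, and old rats at 1.457, 1.502, 1.689 and 1.201. The newborn mean was 43.1-fold the adult mean (interval 21.6 to 86.0) and 16.8-fold the old mean (interval 8.40 to 33.4), with adjusted p = 1.3e-09 and 1.9e-07 in limma. The 4 old rats lay above the 4 adult rats, but the log2 change from old to adult rats of -1.36 did not pass the threshold (adjusted p = 0.081, limma).

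Tnnc2, the calcium sensor of fast fibers, departed from its partners. Pups ran from 4.84 through 6.08 to 7.64, adult rats were at 4.77, 3.84, 4.37 and 3.65, and old rats at 5.64, 6.03, 6.29 and 5.93. Newborn rats exceeded adult rats 3.59-fold (interval 2.23 to 5.76, adjusted p = 4.5e-05, limma). Newborn and old rats overlapped: their means were 5.999 and 5.975, and the fold between them was 1.02 (interval 0.633 to 1.64, adjusted p = 0.97, limma), an interval that still holds differences of up to 1.64-fold. It was also the only one of the 9 genes called between adult and old rats, where it was lower in adult rats by -1.82 log2 steps (adjusted p = 0.0013, limma), against a median of -0.13 over all probes. In that comparison 11.7% of all probes were higher in adult and 20.2% lower. The Tnnc2 call did not hold with normexp background correction, with scan day as a random block or in the methods' t-test, where the adjusted p was 0.0115, 0.0111 and 0.01075.

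The regulatory light chain Mylpf ran from 4.65 through 6.77 to 8.29 in pups, with adult rats at 1.58, 2.15, 1.39 and 1.27 and old rats at 2.05, 2.29, 2.30 and 2.33. It was above background on every array. The newborn mean was 35.5-fold the adult mean (interval 20.1 to 62.7) and 22.7-fold the old mean (interval 12.9 to 40.1), with adjusted p = 1.2e-10 and 1.7e-09 in limma.

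The Z-disc actinin Actn3 differed little between ages. Pups ran from 1.01 through 2.02 to 3.10, adult rats were at 1.06, 1.39, 1.10 and 1.22 and old rats at 1.33, 1.27, 1.20 and 1.16, so that the groups overlapped. The newborn mean was 1.62-fold the adult mean (interval 1.28 to 2.04, adjusted p = 0.00076, limma) and 1.57-fold the old mean (interval 1.24 to 1.97, adjusted p = 0.0017, limma). The call against old rats was lost with scan day as a random block (adjusted p = 0.013) and with the litter means as replicates (adjusted p = 0.0104).

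**Figure D2:**
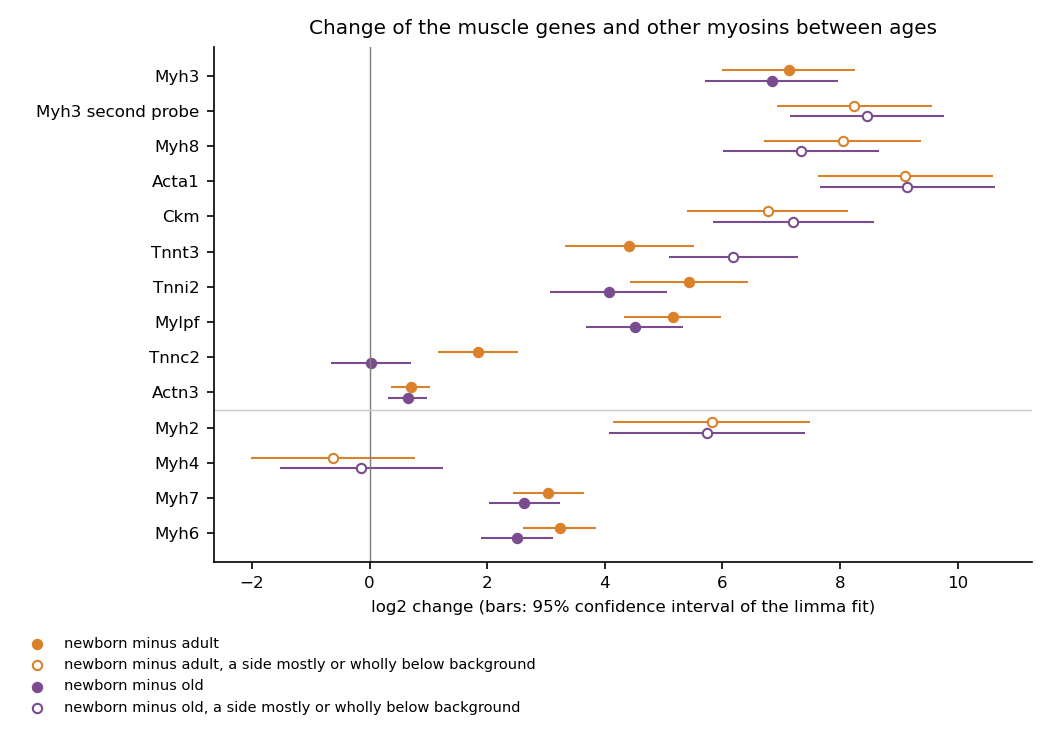
Log2 change of the muscle genes (above the grey line) and of other myosin heavy chains (under it) from adult rats (orange) and old rats (purple) to newborn rats, as fitted by limma with the 95% confidence interval as bars. Open points are genes for which 1 side was mostly or wholly not well above background, so that the fitted value is no measure of size; of the filled points Myh3 lies farthest right, at 7.13 and 6.84, and Actn3 lies at 0.70 and 0.65.

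The size of these folds depended on the processing. With normexp background correction and quantile normalization together, the log2 change from adult rats was 4.88 for Myh3, 4.30 for Tnni2, 4.55 for Mylpf, 3.50 for Myh8 and Acta1 and 3.24 for Ckm, and the 9 of 9 were called. The second Myh3 probe was at 4.35. For this probe, Myh8, Acta1 and Ckm these changes were smaller than the bounds given above, which are thus no lower limit under other processing. Scaled to the 75th percentile they were 6.99 for Myh3, 5.02 for Mylpf, 6.96 for Acta1 and 5.95 for Ckm, and over all probes this scaling turned the split of calls from 10998 higher and 8100 lower in newborn rats to 9125 higher and 10082 lower. Between adult and old rats the split was 4812 higher and 8300 lower in adult rats, and 6621 and 6168 after quantile normalization.

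Litter L1 and the old rats shared a scan day, and within it the contrast could be fitted alone with 4 rats on each side. No slide held arrays of both, so that slide and age cannot be told apart there. Of the 9 genes, 7 were higher in L1, with adjusted p between 8.5e-05 and 0.00064 in limma. The log2 changes were 6.23 for Myh3, 3.31 for Tnni2 and 3.81 for Mylpf. For the genes mostly not above background in old rats only bounds can be given, and L1 was at least 39.6-fold higher for Myh8, 19.2-fold for Tnnt3, 44.0-fold for Acta1 and 40.9-fold for Ckm. Tnnc2 (log2 change -0.54, adjusted p = 0.10) and Actn3 (0.07, adjusted p = 0.76) were not called there. Within a scan day the adult rats could be set against no other group.

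Of the heavy chains of adult muscle, Myh2 and Myh7 were higher in pups than in adult and old rats, and Myh4 was not detected in pups. Myh2, the form of fast oxidative fibers, is read by the first probe of a gene that the array calls LOC691644 and RefSeq calls Myh2, with Myh1 among its synonyms. It was above background on 18 of 19 pups, with levels from -2.19 in rat 29 through a median of 1.28 to 3.00, and on 2 of 8 adult and 2 of 8 old arrays. Pups exceeded adult rats at least 10.7-fold and old rats at least 6.80-fold (adjusted p = 1.5e-06 and 2.3e-06, limma), but the B arrays of old rats 18 and 20, at 0.49 and 0.44, lay among the pups. The second probe of this gene, at chr10:53931485-53931544, was above background on 7 of 19 pups, 1 of 8 adult and 1 of 8 old arrays. It was not called in any age comparison (newborn against adult adjusted p = 0.042, against old 0.38, limma). It lies between the first probe and that of Myh4, and in build GRCr8 the Myh1 promoter lies between those of Myh2 and Myh4. The second probe may thus read Myh1, which could not be settled without a gene model of build rn3. If it does, a gene of the starting set that was not called is missing from the counts.

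Myh4, the fastest form, was above background on none of the 19 pups and none of the 8 old arrays. The one array on which it was detected was the B array of adult rat 14, at 1.63, while the A array of the same rat was at -6.03. Myh7 and Myh6, whose probes could not be separated, were above background on every array, with newborn, adult and old means of 4.74, 1.70 and 2.11 for Myh7 and 4.67, 1.44 and 2.16 for Myh6. Newborn rats were 8.20-fold above adult and 6.20-fold above old rats for Myh7 (adjusted p = 4.8e-09 and 6.6e-08, limma).

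A change with age in the difference between heavy chain probes could be tested where both probes of a pair were well above background on at least 0.5 of the arrays of both ages. Of the pairs of Myh3 or Myh8 with each other and with Myh2, Myh4 and Myh7, only Myh3 with Myh7 met this, a pair added after the data were seen and one in which Myh7 cannot be separated from Myh6. Myh7 was itself 8.20-fold higher in newborn than in adult rats, so the pair does not set an embryonic form against one confined to adult muscle. Myh3 stands here for its first probe. The second Myh3 probe was well above background on 1 of 8 adult and 0 of 8 old arrays, and with it the pair would not meet the rule. The log2 difference of the Myh3 and Myh7 probes was 0.98 ± 0.42 over the litter means (SD, n = 4), -3.11 ± 0.22 in adult rats (SD, n = 4) and -3.22 ± 0.47 in old rats (SD, n = 4). It was thus 4.09 steps higher in newborn than adult and 4.21 steps higher than in old rats, with no overlap, and both adjusted p were 0.029 in an exact two-sided permutation test adjusted over the pair of comparisons, the smallest that 4 against 4 allows. With normexp correction and quantile normalization the values were 2.45 and 2.62.

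Within the pups the difference between the embryonic and neonatal probes, with the first probe for Myh3, could be compared from pup to pup and between litters. Hybridization efficiency differs between probes, so the size of this difference does not show which of the RNAs was more abundant. The log2 difference between the Myh3 and Myh8 probes was 1.97 ± 0.44 (SD, n = 4) in L1, 1.29 ± 0.21 (SD, n = 5) in L2, 1.84 ± 0.71 (SD, n = 5) in L3 and 1.78 ± 0.41 (SD, n = 5) in L4. It ranged from 0.71 to 2.66 over the pups, and its spread within L3 was wider than the distance between any litter means.

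The pups covered a wide range of levels. The level of Myh3 spanned 4.56 log2 steps over the pups, that of Myh8 5.89, and the mean over the 9 genes ran from 2.43 in rat 29 to 6.46 in rat 30, which are littermates of L3. The spread was not wider than that of older rats for every gene and litter: for Ckm the SD was 0.79, 0.97, 1.83 and 0.43 in L1 to L4 and 1.69 in adult rats. Rat 29 had the lowest and rat 30 the highest level of the 19 pups for 8 of the 9 genes. For Actn3 these were rats 12 and 22. Rat 12 was the lowest of L1 for every one of the 9 but Tnnc2, and rat 25 the lowest of L2 for every one but Actn3.

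**Figure D3:**
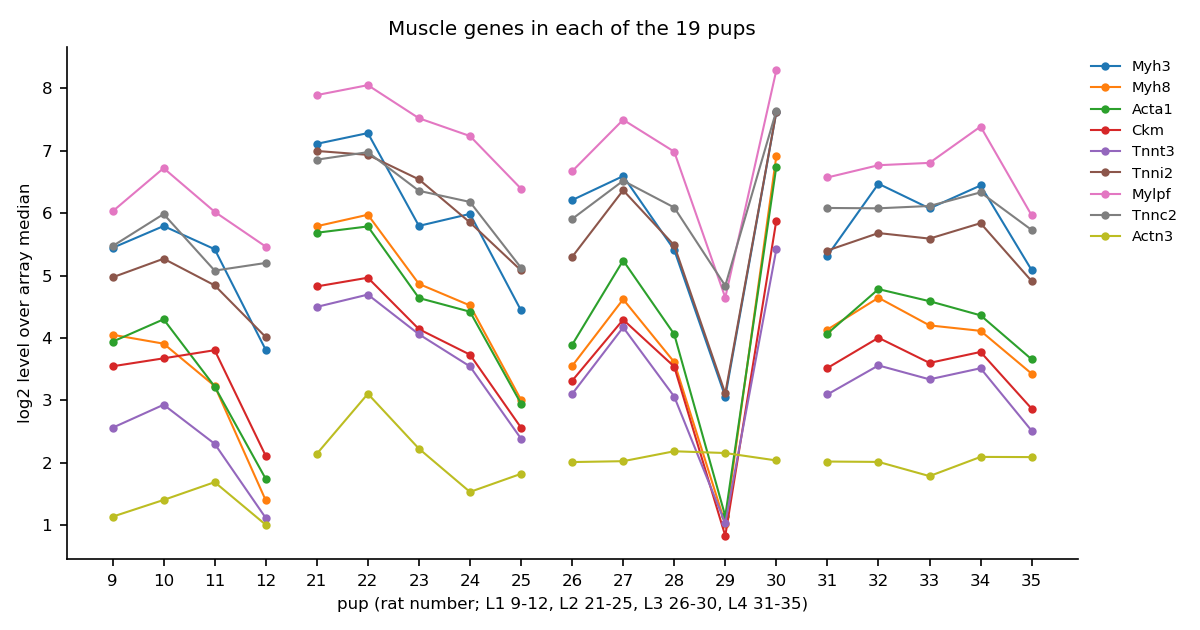
Level of the 9 genes (y axis: log2 of the intensity over the array median) in each of the 19 pups (x axis: rat number, grouped by litter; a line joins the pups of a litter and has no order in time). All lines except that of Actn3 fall at rat 29 and rise at rat 30, from a mean over the genes of 2.43 to 6.46.

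After the mean of each litter was taken off, the 28 pairs of genes without Actn3 had Pearson correlations over the 19 pups between 0.895 and 0.990, with a median of 0.960. The points share arrays, litters and slides, and the values are a description. Without the 2 pups farthest from the median they ran from 0.820 to 0.982. Actn3 had correlations between 0.233 and 0.291 with the other 8 genes, and between 0.0896 and 0.517 without the 2 farthest pups. The array of rat 29 had the highest median intensity of the pups, 87.7 against 42.1 to 71.2 in the other 18, and its part in the low level was not tested. Leaving out rats 29 and 30, an alternative chosen after their values were seen, left 9 of 9 called against adult and 8 of 9 against old rats.

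Between litters, 1 of the 9 genes passed the moderated F test of limma at an adjusted p under 0.01, where 22.6% of all probes did. This was Actn3, at 1.31 ± 0.30 in L1 (SD, n = 4), 2.16 ± 0.59 in L2, 2.08 ± 0.08 in L3 and 1.9998 ± 0.126 in L4 (SD, n = 5 each; adjusted p = 0.0058). L1, which was scanned on another day than the other litters, carried the difference: among L2 to L4 alone the adjusted p was 0.88, and without rats 9, 10 or 12 of L1 it was 0.031, 0.013 and 0.038. It was 0.094 with slide and 0.076 with scan day as a random block, and 0.034 and 0.012 after 75th percentile and quantile scaling. The other 8 genes did not pass, with adjusted p from 0.15 to 0.87. Their L1 means were the lowest of the 4 litters for each, for example 3.15 ± 1.22 for Myh8 in L1 (SD, n = 4) against 4.83 ± 1.19 in L2 (SD, n = 5).

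One adult array stood apart for these genes. On the B array of rat 14, Ckm was at 1.498 against -3.31 on side A, Acta1 at 0.43 against the floor of -6.64, and Tnni2 at 2.59 against -0.39. Tnnt3 was at 0.44 against -1.63, Mylpf at 2.92 against 1.38, the second Myh3 probe at -0.24 against -4.31, and Myh8 at -2.43 against -5.10, neither above background. Of the 9 genes, 8 had their highest adult level on this array (88.9%, against 7.68% of all probes), Tnnc2 being the other, and 8 were above background there against 5 to 7 on the other adult arrays. Of all 41012 probes, 27743 were above background there, within the 25273 to 28020 of the other adult arrays.

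**Figure D4:**
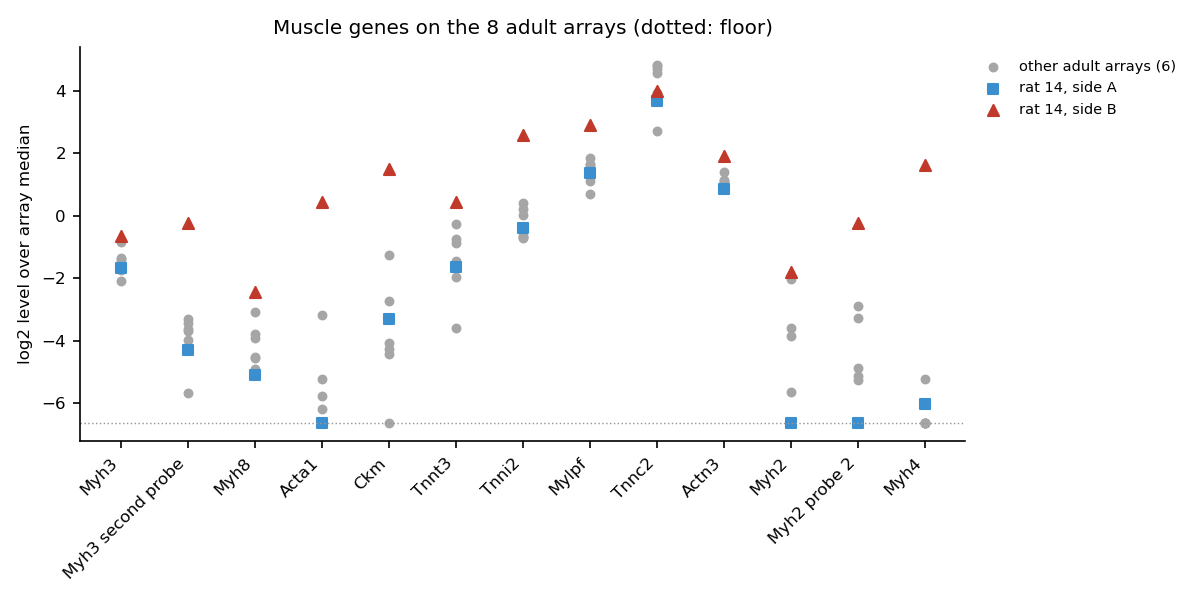
Level of the muscle genes and of 2 adult heavy chains (y axis: log2 of the intensity over the array median; dotted line: the floor) on the 8 adult arrays, with side B of rat 14 as triangles, its side A as squares and the other 6 arrays as circles. The triangle is the highest point in every column but that of Tnnc2, and Myh4 reaches 1.63 there against -6.03 on side A.

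Of the 31 other sarcomere genes, 11 were also highest on that array. The 9 of 9 remained called against adult rats when it was left out, an alternative chosen after its values were seen. The log2 changes were then 5.80 for Tnni2 and 7.26 for Myh3 in place of 5.43 and 7.13, and the bounds were at least 91.1-fold for Acta1, 57.1-fold for Ckm and 83.9-fold for Myh8.

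The rest of the muscle machinery was counted from lists written from general knowledge, though with earlier results of these data known. Of 31 sarcomere genes other than the 9, 21 were higher and 1 lower in pups than in adults and 9 did not pass, where 26.8% of all probes were higher and 19.8% lower. Against old rats 23 were higher and 3 lower, where 20.4% of all probes were higher and 22.7% lower. These shares are the background for each list that follows. The median fitted log2 change from adult rats was 2.25, or 1.34 with the 10 genes not measured on both sides at their bounds, or at 0 where no bound could be given. The named ones were Myoz2 (calsarcin, which ties calcineurin to the Z-disc), at least 4.86-fold higher and above background on 18 of 19 pups and no adult array, Mybpc1 (slow myosin-binding protein C, 36.2-fold higher, adjusted p = 1.9e-10, limma) and, as the only one lower, Tmod1 (the cap of the thin filament's pointed end, log2 change -0.76, adjusted p = 0.00030, limma).

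Genes that muscle switches off or restricts after birth formed a list of their own. Of its 6 measured genes, 6 were higher in pups than in adults and 5 higher than in old rats. Chrng, the fetal subunit of the acetylcholine receptor, was above background on 18 of 19 pups and on no adult or old array, at least 2.89-fold and at least 2.51-fold higher. Csrp3, a muscle LIM protein, exceeded the adult mean at least 19.7-fold, and Myl4, the embryonic light chain, 9.87-fold higher than in adult and 5.90-fold than in old rats. The adult subunit Chrne, which replaces Chrng at the mature endplate, was also higher, 2.96-fold (adjusted p = 0.00012, limma), a call not kept by the methods' t-test (adjusted p = 0.026).

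Among the genes that couple nerve and contraction, 14 of 18 excitation and calcium genes were higher and 1 lower than in adult rats, and 8 higher and 1 lower than in old rats. Trdn, which anchors calsequestrin at the calcium store, was 12.8-fold above adult and 2.50-fold above old rats, and Stac3, a partner of the calcium channel, at least 6.71-fold above adult rats. Srl, a calcium store glycoprotein, was called as well but was above background on 5 of 19 pups only, and with 75th percentile scaling its adjusted p was 0.11. The lower gene was the channel subunit Cacnb1 (log2 change -0.66, adjusted p = 0.00069, limma). At the endplate and membrane, 11 of 15 genes were higher and 1 lower than in adult rats, and 6 higher and 2 lower than in old rats. Among those above adult rats were the receptor subunit Chrnd (3.99-fold) and Rapsn, which clusters the receptor (at least 1.61-fold, though not called in the methods' t-test, adjusted p = 0.043, and at a log2 change of -0.04 from old rats), while Colq, the collagen tail of acetylcholinesterase, was lower by -0.57 (adjusted p = 0.00050, limma; 0.017 with litter means as replicates).

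The metabolic genes of muscle did not share one direction. Of 15, 6 were higher and 5 lower than in adult rats, and 3 higher and 5 lower than in old rats, with median fitted log2 changes of 0.30 and -0.31. Ckmt2, the mitochondrial partner of Ckm, was at least 10.9-fold higher, Ampd1, the muscle AMP deaminase, 6.19-fold and Pgam2, a muscle glycolytic mutase, 3.33-fold, though not called against old rats (log2 change -0.41, adjusted p = 0.28, limma). Cox8b, a cytochrome oxidase subunit of muscle and brown fat, was instead lower by -3.56 against adult and -5.05 against old rats, and Ak1, an adenylate kinase found in many tissues, by -1.36 and -1.50. Phka1, the muscle phosphorylase kinase, was lower by -1.61 on probe values above background on no pup and 4 of 8 adult arrays, and the call was lost without any 1 of the 4 adult rats (adjusted p from 0.011 to 0.024).

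Of 15 genes that control muscle formation, 7 were higher and 2 lower than in adult rats, and 5 higher and 2 lower than in old rats, the latter against 20.4% and 22.7% of all probes. Myod1, the transcription factor that commits cells to muscle, was above background on 15 of 19 pups and on no adult or old array, at least 2.36-fold and 2.06-fold higher. Myog, which drives the fusion and maturation of myoblasts, was above background on every pup, 6.88-fold above adult and at least 8.41-fold above old rats. Vgll2 was called against adult rats on 4 of 19 pups above background, and neither 75th percentile scaling nor normexp kept the call (adjusted p = 0.046 and 0.15). Chodl, a lectin also expressed outside muscle, was lower by -1.02 (adjusted p = 6.7e-06, limma).

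**Figure D5:**
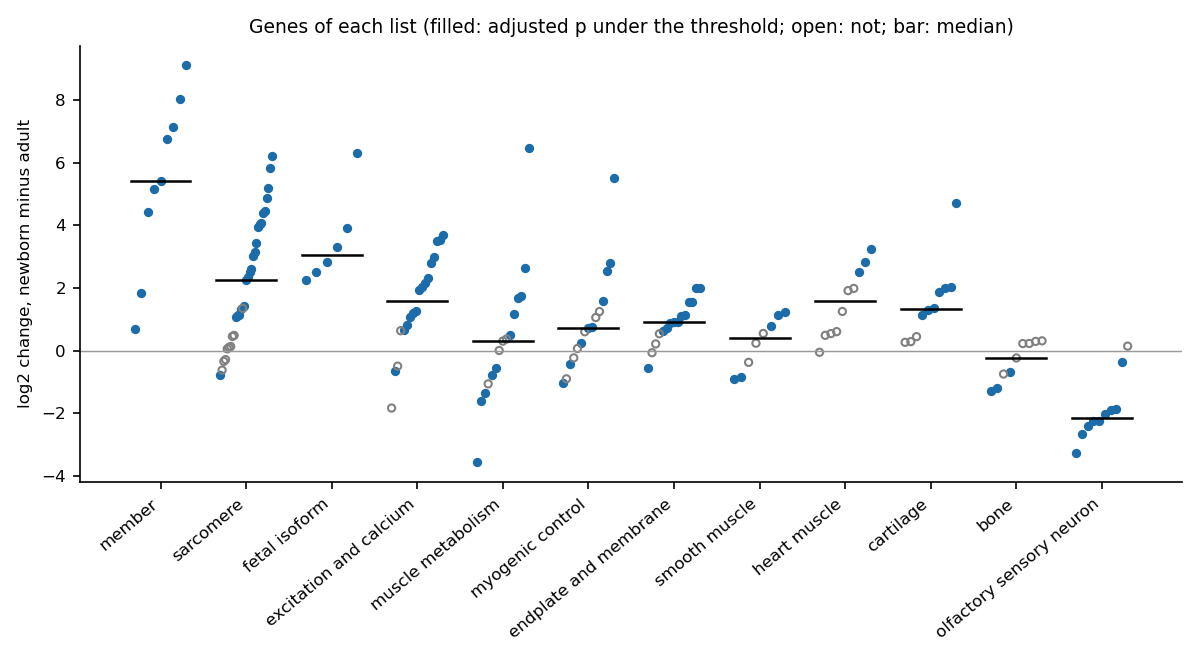
Log2 change from adult to newborn rats (y axis) of each gene of the lists (x axis), 1 point a gene, filled where the adjusted p was under 0.01 and with the median as a bar. The median of the fitted values is 5.43 for the 9 contractile genes, 2.25 for other sarcomere genes, 0.30 for muscle metabolism and -2.14 for olfactory sensory neuron genes.

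Other tissues of the nose moved with age as well. The summed level of the 9 genes, as a multiple of the array median, was 83.1 to 1239 in pups, 18.7 to 33.9 in adult and 60.4 to 89.6 in old rats, the last mostly from Tnnc2. The summed level of 10 olfactory sensory neuron genes was 258 to 538 in pups, 1363 to 1840 in adult and 2045 to 2815 in old rats, and 9 of the 10 were lower in pups than in adults. Of 7 immature neuron genes, 6 were higher than in adult rats. Of 10 cartilage genes, 7 were higher than in adult rats and none lower, led by Col2a1, the collagen of cartilage, at 26.5-fold, with sums of 289 to 792 in pups, 180 to 318 in adult and 127 to 147 in old rats. Of 9 bone genes, 3 were lower than in adult rats and 8 higher than in old rats. Of 9 respiratory and sustentacular genes, 1 was higher and 3 lower than in adult rats, and of 7 fat cell genes 2 and 2. Of 7 reference genes of every cell type, 6 were higher than in adult rats, with a median log2 change of 0.60, and 4 higher and 1 lower than in old rats. The part of these shifts in the muscle values was not tested.

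Markers of the other muscle types were set beside these values. Of 8 smooth muscle genes, 3 were higher and 2 lower than in adult rats, near the 26.8% and 19.8% of all probes, and 3 higher and 3 lower than in old rats, with sums of 39.8 to 75.6 in pups, 33.5 to 44.2 in adult and 45.7 to 56.1 in old rats. Of 10 heart muscle genes, 3 were higher and none lower than in adult rats, again near the 26.8% of all probes, and 2 higher and 2 lower than in old rats. The 3 were Myh6, Actc1 and Tnnt2, of which Actc1 and Tnnt2 are also made by skeletal muscle before birth. The sums were 36.4 to 104 in pups, 13.0 to 19.1 in adult and 19.6 to 23.8 in old rats. The heart natriuretic peptide Nppb was above background on no array and Nppa on 10 of 19 pup, 1 of 8 adult and 2 of 8 old arrays, while the heart troponin Tnni3 was on every array and the atrial light chain Myl7 on 8, 5 and 8 of them. The part of heart or smooth muscle markers in the result was not tested.

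Over the pups, with each litter centred, the mean level of the 31 other sarcomere genes had a correlation of 0.978 with the mean of the 9 genes, and that of the myogenic genes 0.779. The values were -0.536 for smooth muscle (-0.183 without the 2 farthest pups), 0.399 for heart, -0.161 for cartilage, -0.023 for bone, 0.087 for olfactory sensory neurons, 0.242 for immature neurons, -0.420 for respiratory and sustentacular cells and 0.096 for fat cells. In rats 29 and 30 the olfactory neuron genes had mean levels of 3.83 and 3.63 and the cartilage genes 3.75 and 3.11, while the sarcomere genes were at 0.73 and 2.88. The smooth muscle genes went the other way, from 1.26 in rat 29 to 0.46 in rat 30.

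Outside all lists, the genes most like the 9 were sought among 13427 probes with a gene symbol and a signal above background on at least 17 of the 19 pups. By Pearson correlation over the pups, litters centred, the 10 nearest probes were those of Apobec2 (0.989), Atp1b4 (0.986), Hjv (0.985 and 0.981 for its 2 probes), Hspb3 (0.936), Hrc (0.935), Smtnl1 (0.901), Art1 (0.897), Adprhl1 (0.893) and Dlk1 (0.871). Apobec2, a cytidine deaminase relative found in striated muscle, ran from 1.23 in the lowest to 5.08 in the highest pup. Atp1b4, a relative of the sodium pump's beta subunit, ran from -2.08 to 3.37, with means of -6.44 in adult and -6.42 in old rats.

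Promoters are shown for Acta1 and Ckm, which were among those whose upstream bases held the E-box of muscle factors, and for Myh3 as the embryonic form. Of the 10 genes, 9 had an entry in the RefSeq table of rat promoters (build GRCr8), and the 250 bases before each start were searched on both strands. These are not the 9 genes measured above: Tnnt3 had no entry, and Myh1 is included. Capitals mark the motifs found, other than the general E-box.
Acta1, chr19:68784195-68784444, minus strand: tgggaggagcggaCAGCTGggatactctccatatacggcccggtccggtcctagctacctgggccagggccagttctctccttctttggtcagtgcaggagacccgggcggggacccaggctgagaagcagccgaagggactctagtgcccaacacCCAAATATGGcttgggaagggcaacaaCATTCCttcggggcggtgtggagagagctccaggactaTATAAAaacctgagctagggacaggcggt
Ckm, chr1:88189211-88189460, plus strand: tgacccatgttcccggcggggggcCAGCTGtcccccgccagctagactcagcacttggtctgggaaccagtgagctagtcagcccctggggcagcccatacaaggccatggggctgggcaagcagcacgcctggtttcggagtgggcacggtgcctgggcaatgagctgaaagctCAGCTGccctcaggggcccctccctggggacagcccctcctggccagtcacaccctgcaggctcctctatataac
Myh3, chr10:52268935-52269184, plus strand: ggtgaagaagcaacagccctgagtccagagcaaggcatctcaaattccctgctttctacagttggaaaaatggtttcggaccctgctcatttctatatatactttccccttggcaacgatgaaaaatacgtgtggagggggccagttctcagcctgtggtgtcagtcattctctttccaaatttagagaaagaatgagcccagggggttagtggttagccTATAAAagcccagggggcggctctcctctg
The E-box CAGCTG, a form bound by Myod1 and Myog, was in 3 of the 9 promoters (Acta1, Ckm with 2 copies and Mylpf), and in 12.0% of 33469 rat promoters. TATAAA was in 4 (Myh3, Myh1, Tnni2 and Acta1), against 12.9% of all. CATTCC, the core of the site of TEAD factors, was in 2 (Myh1 and Acta1), against 12.1%. The CArG box of serum response factor was in Acta1 alone, from -94 to -85 relative to the start, against 1.5% of all promoters, and the MEF2 site in Myh1 alone, overlapping a TATAAA, against 2.96%. The general E-box CANNTG, which includes CAGCTG, was in 6 of 9, against 65.5% of all promoters. A match shows only that the letters are present in the window.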

How the data were processed

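RNA of olfactory epithelium from 27 rats was measured on 35 arrays of 45018 spots with 1 dye. The deposited scanner files hold intensities that the authors obtained with Feature Extraction (9.5.1.1 for adult rats, 9.5.3.1 for the others), background-subtracted and with a flag for each spot. The deposited value table holds a ratio: of its 41012 lines, 99.7% differed from the intensity over the array median by 1 constant over the arrays (tolerance, an SD of 0.01 on the log2 scale), with 201310 entries at 0.01. The authors worked with GeneSpring. Columns of fold changes or p-values were not used.

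Here intensities were expressed relative to the median of the 41012 probes on their array, set to at least 0.01 and taken as log2. In all, 4189 flagged values on 732 probes were left out. Arrays A and B of a rat were averaged, so that the rat was the replicate. The 6 groups (4 litters, adult, old) were fitted with limma 3.58.1 (lmFit, eBayes) in R 4.3.3 with statmod 1.5.0, newborn being the mean of the litters. P-values were Benjamini-Hochberg adjusted over all probes and called under 0.01, with a fold of 5 where stated, and litters were compared by the moderated F test. Tables were handled in Python 3.11.15 with pandas 2.3.3, numpy 2.4.6 and scipy 1.17.1. The Myh3 and Myh7 difference was tested by an exact two-sided permutation of litter means and rats. The limma script was tested on simulated data.

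Probes were named through RefSeq where it held their accession (10861 probes) or gene ID (1205 probes), and by the array's own name otherwise. Every member probe is named. From the other lists, up to 3 genes with the largest change in each direction among those called against adult rats were picked, and the 10 probes most like the members by correlation over the pups. A result of the lists that this rule picked is not reported here. The members and lists were chosen with earlier results of these data known. Alternatives were the 75th percentile, quantile and normexp (offset 50) settings, the floor before scaling, the value table, probes expressed in common, slide, scan day or rat as a random block (correlations 0.212, 0.173 and 0.459), a trend, only the groups compared, the methods' t-test, litter means and each rat left out.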

Additional observations from a re-analysis of the deposited data

Results flagged for a closer look

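In 90 groups of 4 or 5 rats, the gap from the highest or lowest rat to its nearest neighbor was set against the whole range of the group, and 6 values of 5 rats stood apart by Dixon's 95% critical value, a rule by which chance alone marks some groups. For Actn3 in L4, rat 33 was lowest at 1.79, with the next rat at 2.01. For Ckm in L1, rat 12 was lowest at 2.11, with the next at 3.55. For Mylpf in old rats, rat 17 was lowest at 2.05, with the next at 2.29. The other 3 concerned Myh4, the fastest adult heavy chain. Adult rat 14 was highest at -2.20, with the next at -5.94, and this mean holds the 1 array on which Myh4 was above background. Old rat 19 was highest at -3.42 and rat 33 of L4 at -4.67, with the other rats of both groups at the floor of -6.64, and neither value was above background.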

How the results depend on the processing

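Against adult rats the 9 contractile genes were called under every alternative that tested all 9, and each left-out rat gave 9 again. Over probes expressed in common only 5 were tested (Myh3, Tnni2, Tnnc2, Actn3 and Mylpf) and 5 were called against adult and 4 against old rats, fewer because fewer were tested. Against old rats each left-out rat gave 8. Tnnc2, not called there, changed sign: its log2 change was -0.028 with the 75th percentile, -0.54 for L1 alone, and -0.085 to 0.13 with 1 rat left out. Between adult and old rats, 0 of the 9 were called with normexp, with scan day as a block and in the methods' t-test, and 3 (Tnni2, Tnnc2 and Tnnt3) without pups 29 and 30, while each left-out rat gave 1. Between litters, 0 were called with the 75th percentile, quantile normalization, slide, scan day or rat as a block, among L2 to L4 alone and without pups 29 and 30, and 0 to 1 with 1 rat left out. The Myh3 and Myh7 difference was 3.99 to 4.21 steps above adult and 4.01 to 4.37 above old rats with 1 rat left out, where 3 against 4 rats cannot reach an adjusted p under 0.057. The causes were not tested. No paired analysis was possible because rat numbers are not shared between groups. Probes near background, such as Acta1 in adult rats, limit the size of a fold: its log2 change ran from 3.50 to 11.72 over the alternatives.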
